A study of Arabidopsis thaliana with 12 samples.

Results

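The LHCB genes encode the light-harvesting chlorophyll a/b proteins of photosystem II, the antenna that collects light in the thylakoid membrane. LHCB1, LHCB2 and LHCB3 proteins assemble into the trimeric antenna called LHCII, whereas LHCB4 (CP29) is a monomeric linker between the trimers and the reaction centre. LHCB1 and LHCB2 carry a threonine near the N terminus that the kinase STN7 phosphorylates when plants rebalance light between the photosystems. All are nuclear genes whose transcripts are high in green tissue, induced by light and set by the circadian clock, and their proteins are imported into the chloroplast.

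The 10 genes described here were chosen by identifier from the 69056 features in the files, of which 37572 are nuclear genes. They are LHCB1.1 (AT1G29920), LHCB1.2 (AT1G29910), LHCB1.3 (AT1G29930), LHCB1.4 (AT2G34430), LHCB1.5 (AT2G34420), LHCB2.1 (AT2G05100), LHCB2.2 (AT2G05070), LHCB2.3 (AT3G27690), LHCB3 (AT5G54270) and LHCB4.1 (AT5G01530). Of the 10, 9 passed the filter on low values and were tested, and LHCB1.5 was listed at 0 in every library.

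Messenger RNA of whole Arabidopsis seedlings was sequenced in 12 libraries, 2 in each of 6 groups. V1200R/cc lines 9 and 15 carry a FLAG-tagged genomic copy of the DNA methyltransferase gene CMT2, under its own promoter, in which the codon for valine was changed to arginine. CMT2/cc lines 1 and 19 carry the same genomic copy without that change, and all 4 lines are in the cc background. The libraries labelled cc are from the double mutant with T-DNA insertions in CMT2 and CMT3 (cmt2-7 cmt3-11), and Col-0 is the wild type. Every group was grown for 10 days on 1/2 MS medium with 1% sucrose, under 16 h of light and 8 h of dark at 22 °C. The hour of harvest is not given in the sources used here, and nothing in the labels says whether the 2 replicates of a group were separate cultures, so the p-values measure the spread between these libraries. Each construct is represented by 2 lines, and with that number an exact permutation test over lines could not give a p below 0.333.

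The processed files imply between 930 and 1453 Mb of aligned sequence per library. CMT2 was at 112 to 159 TPM (transcript abundance scaled to gene length and library total) in V1200R/cc, 79.6 to 123 TPM in CMT2/cc, 1.70 to 1.99 TPM in cc and at least 13.3 TPM in Col-0. CMT3 stood at 14.0 to 16.4 TPM in cc, above the 11.5 to 12.9 TPM of Col-0, so the double mutant is named by its label throughout. In the lines it was lower than in both, at 5.93 to 6.29 TPM in V1200R/cc and 4.72 to 7.02 TPM in CMT2/cc, so for this gene the cc libraries do not match the lines they are set against, and the part of this in the LHCB values was not tested. Replicates of a group correlated across tested features with Pearson's r between 0.980 and 0.982. Mean read coverage of the 9 tested LHCB genes lay between 1090 and 11991 reads per base.

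LHCB transcripts were among the most abundant in the seedlings. Ranked by mean TPM among nuclear genes, LHCB1.3 was at rank 2, LHCB1.1 at rank 5, LHCB3 at rank 9, LHCB1.2 at rank 12 and LHCB2.2 at rank 14. LHCB2.1 followed at rank 18, LHCB4.1 at rank 25, LHCB1.4 at rank 36 and LHCB2.3 at rank 55. Mean TPM over the 12 libraries ran from 1985 for LHCB2.3 to 13531 for LHCB1.3. Together the LHCB genes took 5.31% to 5.78% of all TPM in V1200R/cc, 5.16% to 5.45% in CMT2/cc, 5.61% to 5.81% in cc and 5.59% to 6.31% in Col-0.

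Whether near-identical copies could be told apart was read from their sequences. LHCB1.1, LHCB1.2 and LHCB1.3 lie within a few kilobases of each other on chromosome 1 (TAIR10, LHCB1.1 at chr1:10474656-10475969 and LHCB1.2 at chr1:10472280-10473502 on the minus strand, LHCB1.3 at chr1:10477885-10479114 on the plus strand). Their coding sequences of 804 bases each are 95.6% to 96.4% identical. A stretch of 60 coding bases, from coding positions 25 to 84, is printed for each because it holds 8 of the 47 coding positions at which the copies differ, in capitals.
LHCB1.1: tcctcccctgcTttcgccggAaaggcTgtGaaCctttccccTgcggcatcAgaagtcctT
LHCB1.2: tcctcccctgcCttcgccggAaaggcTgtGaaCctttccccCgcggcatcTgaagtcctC
LHCB1.3: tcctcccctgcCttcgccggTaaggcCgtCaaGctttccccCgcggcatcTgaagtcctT

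LHCB2.1 (chr2:1822990-1824480, minus strand) and LHCB2.2 (chr2:1799234-1800472, minus strand) are 96.6% identical over 798 coding bases. LHCB2.3 (chr3:10255906-10257489), LHCB3 (chr5:22038165-22039568) and LHCB4.1 (chr5:208866-210548), all on the plus strand, have no such close copy among the 10. For LHCB2.1 and LHCB2.2, the window from coding positions 34 to 93 holds 11 of their 27 differences, in capitals.
LHCB2.1: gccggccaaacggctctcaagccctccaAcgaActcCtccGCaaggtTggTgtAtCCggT
LHCB2.2: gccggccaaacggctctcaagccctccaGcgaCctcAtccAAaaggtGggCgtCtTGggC

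Windows of 50 bases were counted as shared if they also occur in another of the 10 transcripts or at a second place in the genome. Over whole transcripts, that share was 20.5% for LHCB1.1, 10.6% for LHCB1.2, 17.0% for LHCB1.3 and 13.7% for LHCB1.4. It was 17.3% for LHCB1.5, 22.7% for LHCB2.1 and 28.2% for LHCB2.2, and none of the windows of LHCB2.3, LHCB3 or LHCB4.1 were shared. Genes annotated over the same bases were not counted. LHCB2.3 overlaps AT3G27700 by 595 bases, LHCB3 overlaps AT5G54280 by 186 and LHCB1.3 overlaps AT1G29940 by 108. These overlapping genes were listed at no more than 17.8 TPM, and the feature over LHCB1.5 is described below. LHCB1.4 shared its windows with LHCB1.1, LHCB1.2 and LHCB1.5. The remaining windows were not found at a second place, but how the authors' pipeline assigned reads with several alignments is not stated. The split among LHCB1.1 to LHCB1.3, between LHCB2.1 and LHCB2.2, and between LHCB1.4 and the copies it shares windows with is therefore uncertain. Sums over LHCB1.1 to LHCB1.3 and over LHCB2.1 and LHCB2.2 are given beside the single genes. No sum of LHCB1.4 with the LHCB1.5 locus is given. These sequences, and the promoters below, are from RefSeq (TAIR10.1), whose start and end equal those in the files for 37551 of 37572 nuclear genes, all 10 LHCB genes included.

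LHCB1.5 (chr2:14522524-14523568, minus strand, 1 exon) was listed at 0 TPM in all 12 libraries, although its neighbour LHCB1.4 (chr2:14524607-14525918, plus strand) was at 2204 to 3311 TPM. An antisense long noncoding RNA, AT2G08665, is annotated on the opposite strand over all 1045 bases of LHCB1.5, also as 1 exon (chr2:14522522-14523568). AT2G08665 was listed at 12031 and 11059 TPM in V1200R/cc line 9 and 12174 and 12122 TPM in line 15. In CMT2/cc it was at 9602 and 10380 TPM in line 1 and 10036 and 9823 TPM in line 19. It was at 10523 and 11346 TPM in cc and at 11234 and 13058 TPM in Col-0, which placed it at rank 4 among nuclear genes. The kit named in the labels is not called a stranded one and no strand setting is given, so reads of LHCB1.5 and of AT2G08665 cannot be told apart here, and the 0 says nothing about the level of LHCB1.5.

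Of 4103 coding genes listed at 0 in all 12 libraries, 2 were covered in full by an antisense feature with a mean of at least 100 TPM. The other was AT2G23670 under AT2G23672, at a mean of 156 TPM. With the summed TPM of the locus in place of LHCB1.5, an alternative chosen after the zeros had been seen, the LHCB genes took 6.42% to 6.99% of all TPM in V1200R/cc, 6.14% to 6.45% in CMT2/cc, 6.67% to 6.95% in cc and 6.72% to 7.62% in Col-0.

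**Figure D1:**
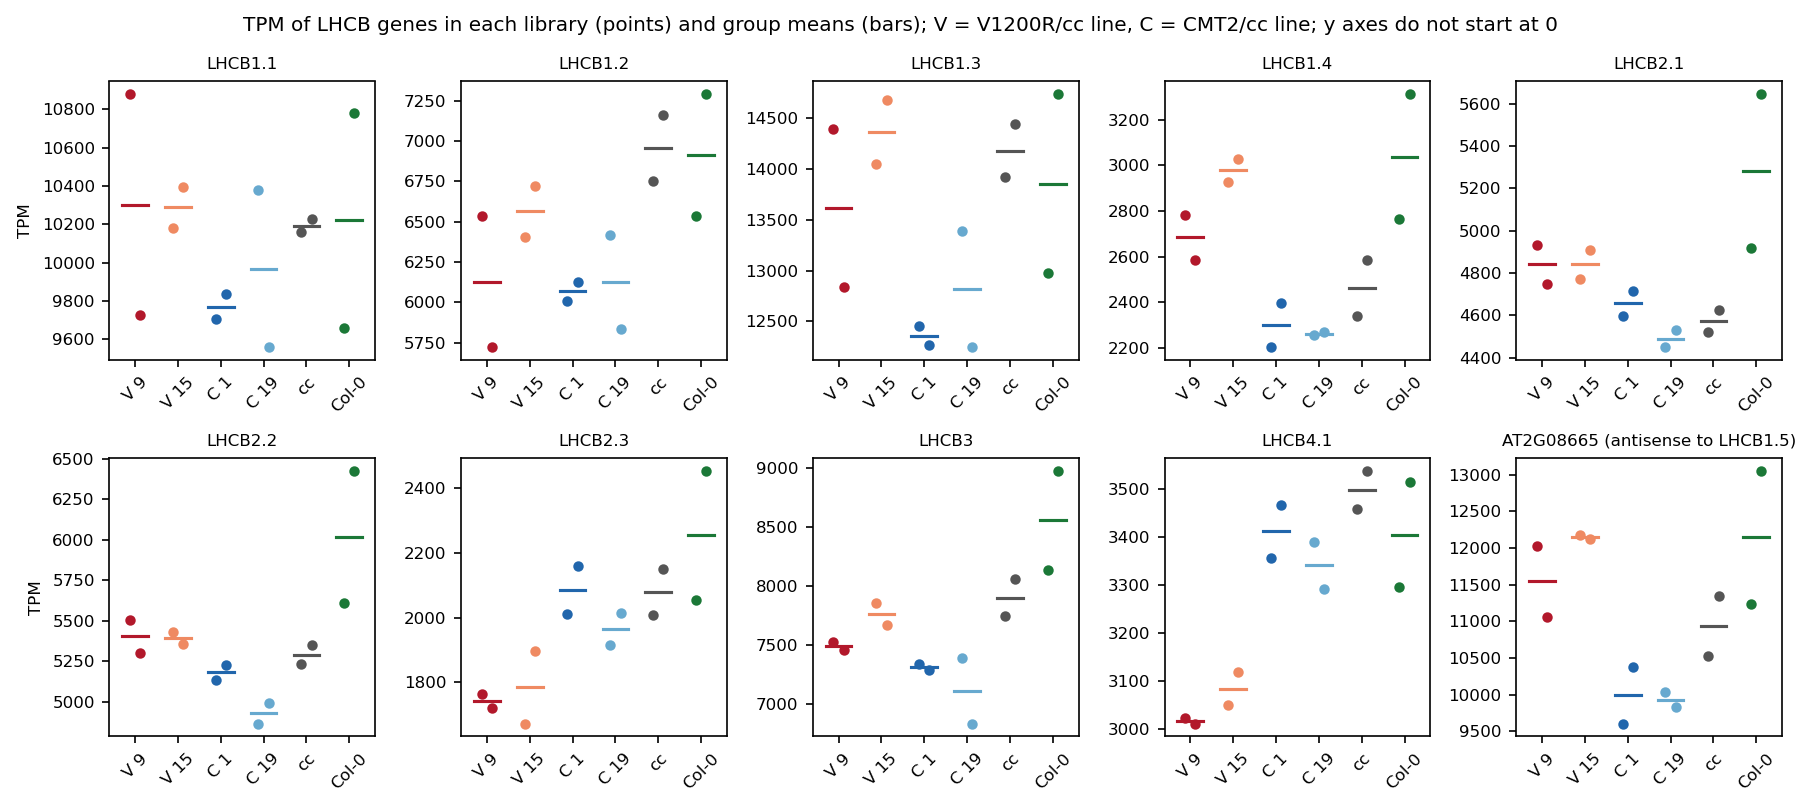
TPM of the 9 tested LHCB genes and of AT2G08665, 1 panel a gene, with the 6 groups along the x axis, 1 point a library and a bar at the group mean of 2 libraries; the y axes do not start at 0. LHCB4.1 lies between 3012 and 3120 TPM in the 4 V1200R/cc libraries and between 3292 and 3537 TPM in the other 8, and every V1200R/cc point of LHCB1.4 is above every CMT2/cc point.

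The question for the constructs was whether transcripts differ between CMT2 with the arginine and CMT2 without it, in lines that also differ in CMT2 level. All 9 LHCB genes tested stayed within 1.24-fold between V1200R/cc and CMT2/cc. Of the 9, 7 had a positive log2 fold change, and LHCB2.3 and LHCB4.1 a negative one. LHCB1.4 rose by 23.9%, while LHCB2.3 fell by 12.9% and LHCB4.1 fell by 9.62%. A limma fit of log2(TPM + 0.5) over 23614 features was used, with Benjamini-Hochberg adjustment over all of them and a call at adjusted p below 0.05. In that fit 27.5% of all features passed in this comparison, and 45.2% of the 93 nuclear genes with a mean of at least 1000 TPM, so 3 of 9 LHCB genes is close to the background. The median log2 fold change of the 9 genes was 0.08, against -0.02 over all features. In whole seedlings, a difference in the share of green cells and a difference in LHCB RNA per green cell cannot be told apart.

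LHCB1.4, a trimer subunit, was at 2782 and 2586 TPM in V1200R/cc line 9 and 2928 and 3029 TPM in line 15, against 2204 and 2398 TPM for line 1 of CMT2/cc and 2256 and 2270 TPM in line 19. The 4 V1200R/cc libraries all lay above the 4 CMT2/cc libraries. The log2 fold change was 0.31 (SE 0.06, limma adjusted p = 0.006), and the gene passed under all 24 alternatives tried, with adjusted p between 0.0014 and 0.032. A minimum fold change of 2 was an additional alternative, which no LHCB gene reached.

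LHCB2.3, the LHCB2 copy with the lowest level, was at 1766 and 1720 TPM in V1200R/cc line 9 and 1673 and 1898 TPM in line 15, against 2012 and 2158 TPM for line 1 of CMT2/cc and 1917 and 2015 TPM in line 19. The groups did not overlap, but replicate 2 of V1200R/cc line 15 came close to replicate 1 of CMT2/cc line 19. Its log2 fold change was -0.20 (SE 0.06, limma adjusted p = 0.045), and it passed under 13 of 24 alternatives (adjusted p between 0.016 and 0.16), losing the call without any of the 4 CMT2/cc libraries, either library of V1200R/cc line 9 or replicate 1 of line 15 (log2 fold change between -0.22 and -0.15).

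LHCB4.1, the linker protein CP29, was at 3023 and 3012 TPM in V1200R/cc line 9 and 3050 and 3120 TPM in line 15, against 3356 and 3467 TPM for line 1 of CMT2/cc and 3389 and 3292 TPM in line 19. The 4 V1200R/cc libraries were below all other libraries of the series. Its log2 fold change was -0.15 (SE 0.03, limma adjusted p = 0.013), and the gene passed under 21 of 24 alternatives (adjusted p between 0.0079 and 0.11), in all 12 fits without a library among them. With quantile normalization its value was -0.08 (limma adjusted p = 0.064) and that of LHCB2.3 was -0.11 (limma adjusted p = 0.16).

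The other 6 genes did not pass between the constructs, and their 95% intervals lay between -0.08 and 0.28. These unadjusted intervals measure the spread between libraries, not between lines, so they do not bound the effect of a construct. LHCB1.3, the most abundant LHCB transcript, had a log2 difference of 0.15 (95% interval 0.02 to 0.28, limma adjusted p = 0.088). LHCB1.1 and LHCB1.2 had differences of 0.06 each, with intervals of -0.06 to 0.18 and -0.08 to 0.19. LHCB2.1 had 0.08 (interval -0.02 to 0.19), LHCB2.2 had 0.09 (interval -0.01 to 0.20) and LHCB3, which lacks the STN7 phosphorylation site, had 0.08 (interval -0.02 to 0.18). Summed over copies, LHCB1.1 to LHCB1.3 differed by 0.10 (SE 0.06, limma adjusted p = 0.27) and LHCB2.1 with LHCB2.2 by 0.09 (SE 0.05, limma adjusted p = 0.21). The summed LHCB1.5 locus was higher in V1200R/cc by 0.25 (SE 0.06, limma adjusted p = 0.013).

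The same comparison was made line by line, with smaller groups. LHCB1.4 was higher than in CMT2/cc lines 1 and 19 by 0.37 and 0.40 in V1200R/cc line 15 (limma adjusted p = 0.02 and 0.013) and by 0.22 and 0.25 in line 9 (limma adjusted p = 0.17 and 0.11). In those comparisons 16.6% and 20.5% of features passed for line 15 and 8.01% and 11.9% for line 9. LHCB1.4 was the only LHCB gene called in them, in line 15 alone, and a difference between lines 15 and 9 was not detected for it (log2 difference 0.15, interval -0.05 to 0.35, limma adjusted p = 0.81). LHCB4.1 was lower in all 4 pairs of lines, by between -0.18 and -0.12 (adjusted p between 0.058 and 0.13), and LHCB2.3 by between -0.26 and -0.14 (adjusted p between 0.12 and 0.32).

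Between lines of the same construct, no LHCB gene passed the limma test. V1200R/cc line 15 against line 9 gave 0 of 9 (0.0212% of all features passed), and CMT2/cc line 19 against line 1 gave 0 of 9 (0.182% of all features). No LHCB gene reached an unadjusted p below 0.05 in either. The largest difference was that of LHCB1.4 between lines 15 and 9.

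**Figure D2:**
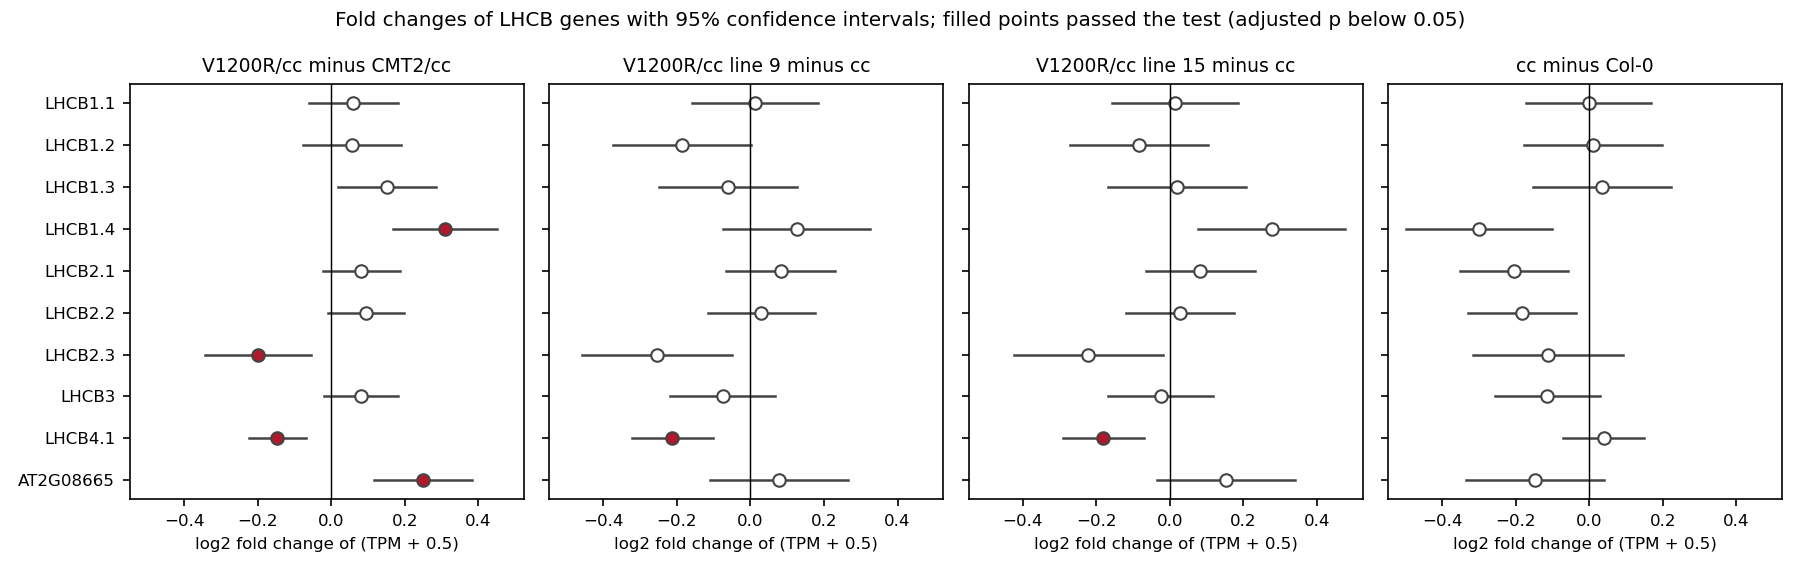
Log2 fold change of TPM + 0.5 (x axis) with its 95% interval from the limma fit for the 9 tested LHCB genes and AT2G08665 (rows), in 4 comparisons; filled points passed at adjusted p below 0.05. LHCB1.4 (0.31) and AT2G08665 (0.25) lie to the right and LHCB2.3 (-0.20) and LHCB4.1 (-0.15) to the left between the constructs, and LHCB4.1 is the only filled point against cc.

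Against the libraries labelled cc, LHCB4.1 fell in both V1200R/cc lines and no other LHCB gene passed. Both lines are set against the same 2 cc libraries (3458 and 3537 TPM for LHCB4.1), so the results are not independent. The log2 fold change was -0.21 in line 9 (SE 0.05, limma adjusted p = 0.027) and -0.18 in line 15 (SE 0.05, limma adjusted p = 0.038). This was 1 of 9 genes in each, while 8.83% of all features passed for line 9 and 13.7% for line 15. Without either cc library or either library of the line itself, LHCB4.1 did not pass (log2 fold change between -0.23 and -0.20 in line 9 and between -0.20 and -0.16 in line 15), nor, for line 15, without any library of CMT2/cc line 1 or V1200R/cc line 9. It also did not pass with no filter on low values, with median-ratio scale factors or in a fit of the compared libraries alone. LHCB2.3 had -0.25 in line 9 and -0.22 in line 15 (limma adjusted p = 0.12 and 0.14), and LHCB1.4 had 0.13 and 0.28 (limma adjusted p = 0.43 and 0.071).

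For CMT2 without the change, no LHCB gene passed the limma test against cc. In CMT2/cc line 1, 0 of 9 passed (4.02% of all features), while LHCB1.2 and LHCB1.3, at -0.20 each on the log2 scale, had an unadjusted p below 0.05. In line 19, 0 of 9 passed (3.04% of all features), with LHCB3 below that unadjusted level at -0.15. All 9 genes had a negative log2 fold change in line 19 and 7 of 9 in line 1, with medians of -0.10 and -0.06, beside -0.03 over all features in each. The lines share the cc libraries, and the share of all features below the unadjusted level is not given.

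Loss of both methyltransferases, as labelled, was compared in cc and Col-0. By the limma test 0 of 9 LHCB genes passed, while 4.44% of all features did. At an unadjusted p below 0.05, a level at which the share of all features is not given, there were 3 genes. LHCB1.4 was at 2339 and 2585 TPM in cc, against 2765 and 3311 TPM in Col-0 (log2 fold change -0.30, SE 0.09, limma adjusted p = 0.10). LHCB2.1 had -0.20 (SE 0.07, limma adjusted p = 0.13) and LHCB2.2 had -0.18 (SE 0.07, limma adjusted p = 0.18). Col-0 replicate 2 was above replicate 1 for all 9 LHCB genes, and without replicate 1 these 3 genes passed (log2 fold changes -0.43, -0.30 and -0.28, limma adjusted p = 0.037, 0.037 and 0.047). LHCB1.1, LHCB1.2, LHCB1.3 and LHCB4.1 were within 0.04 of 0 on the log2 scale.

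The transgenic lines were also set against wild type. In V1200R/cc lines 9 and 15, 0 of 9 LHCB genes passed in limma against Col-0, with 4.48% and 6.3% of all features. Below an unadjusted p of 0.05 there were 4 and 3 genes, a level at which the share of all features is not given. In CMT2/cc line 1, LHCB1.4 was lower than in Col-0 by a log2 fold change of -0.40 (limma adjusted p = 0.036; 5.18% of all features passed). In CMT2/cc line 19, 3 of 9 were lower (9.55% of all features): LHCB1.4 at -0.42, LHCB2.2 at -0.29 and LHCB3 at -0.27 (limma adjusted p = 0.019, 0.026 and 0.031). These comparisons share the Col-0 libraries, and no difference between them was tested here.

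The order of the groups by mean level differed between the genes, and neighbouring groups in these orders overlapped in 31 of 45 pairs. None of the 45 pairs passed in limma (adjusted p between 0.13 and 1), which says little, since neighbours are by construction the closest groups, and groups further apart passed for LHCB1.4, LHCB2.2, LHCB3 and LHCB4.1 as given above. LHCB1.4 ran from CMT2/cc line 19 (2263 TPM ± 10.0, SD, n = 2) and line 1 through cc and V1200R/cc lines 9 and 15 to Col-0 (3038 TPM ± 386, SD, n = 2). LHCB4.1 ran from V1200R/cc line 9 (3017 TPM ± 7.89) and line 15 (3085 TPM ± 49.4) through CMT2/cc line 19, Col-0 and CMT2/cc line 1 to cc (3498 TPM ± 56.1; SD, n = 2 each). LHCB2.3 also had V1200R/cc at its low end but Col-0 at its high end (2255 TPM ± 282, SD, n = 2).

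Ratios between LHCB genes within a library do not depend on how libraries are scaled. They are given as a description, chosen after the values had been seen. LHCB2.3 relative to LHCB2.1 plus LHCB2.2 was 0.164 to 0.185 in V1200R/cc, 0.206 to 0.217 in CMT2/cc, 0.206 to 0.216 in cc and 0.195 to 0.203 in Col-0. V1200R/cc libraries were below all others in that ratio. LHCB1.2 relative to LHCB1.3, its neighbour on chromosome 1, was 0.446 to 0.458 in V1200R/cc and at least 0.476 in the other 8 libraries, though this pair shares sequence.

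Other ratios placed V1200R/cc beside Col-0. LHCB4.1 relative to LHCB3 was 0.388 to 0.407 in V1200R/cc, 0.457 to 0.482 in CMT2/cc, 0.439 to 0.447 in cc and 0.391 to 0.405 in Col-0. V1200R/cc and Col-0 overlapped there, and both genes were higher in every Col-0 library than in any of V1200R/cc. LHCB1.4 relative to LHCB1.1 plus LHCB1.2 plus LHCB1.3 was 0.0875 to 0.0956 in V1200R/cc, 0.0747 to 0.0849 in CMT2/cc, 0.0759 to 0.0812 in cc and 0.0948 to 0.101 in Col-0.

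**Figure D3:**
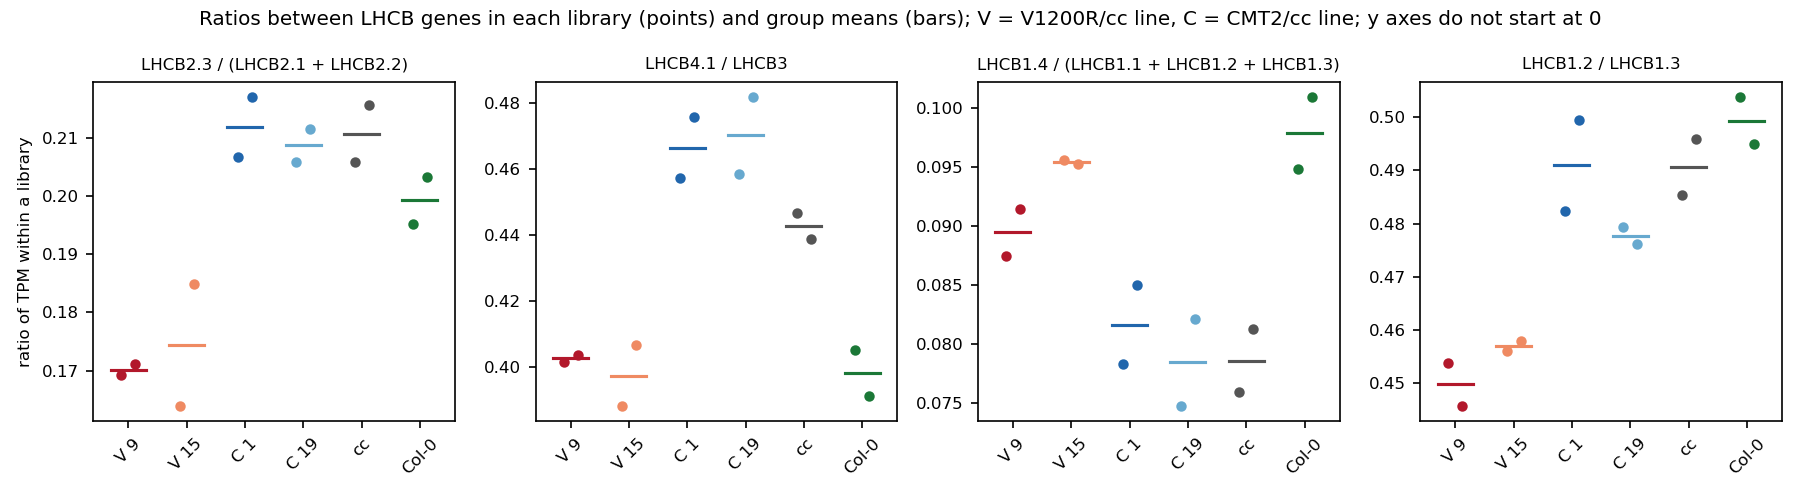
Ratio of TPM between LHCB genes within a library (y axis, not starting at 0), 1 point a library and a bar at the group mean, for the 6 groups along the x axis. The ratio of LHCB2.3 to LHCB2.1 plus LHCB2.2 is 0.164 to 0.185 in V1200R/cc and at least 0.195 elsewhere, and the ratio of LHCB4.1 to LHCB3 is lower in V1200R/cc and Col-0 than in CMT2/cc and cc.

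Across the 12 libraries the close copies varied together. Among the tested LHCB genes, LHCB1.4 and LHCB2.3 had their highest correlations with genes of other families. Pearson's r of log2 values was 0.96 between LHCB2.1 and LHCB2.2, the highest of all pairs of tested LHCB genes. Among the copies on chromosome 1 it was 0.86 for LHCB1.1 with LHCB1.3, 0.84 for LHCB1.2 with LHCB1.3 and 0.71 for LHCB1.1 with LHCB1.2, and these copies share sequence. LHCB1.4 had r of 0.87 with LHCB2.1 and 0.57 to 0.71 with LHCB1.1 to LHCB1.3. Its closest copy in coding sequence, LHCB1.5 (91.4% identical), is missing from these pairs, so they cannot set LHCB1.4 apart from its own family. AT2G08665, which covers LHCB1.5, kept a ratio to LHCB1.4 between 3.94, the lowest in Col-0, and 4.50, the highest in cc. LHCB2.3 correlated with LHCB4.1 (r = 0.87) more closely than with LHCB2.1 (0.39) or LHCB2.2 (0.43), with which it shares no 50-base window. LHCB4.1 had r of -0.28 with LHCB1.4. These values describe 12 libraries that share group structure and scaling, and carry no test.

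Outside the family, the patterns most like the LHCB mean belonged to photosystem I genes. Among 15182 nuclear genes with a mean of at least 5 TPM, the highest r with the mean log2 level of the 9 genes over 12 libraries was that of LHCA1 (0.94), an antenna protein of photosystem I. PSAG (0.92), LHCA2 (0.91) and PSAF (0.91), all of photosystem I, and AT3G60480 (0.89) followed.

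The sequence before each gene was searched for motifs known from light- and clock-regulated promoters, in the 250 bases upstream of the annotated start and on both strands. CACGTG, the G-box bound by PIF and HY5 proteins, was present in LHCB2.3 and LHCB4.1 only, starting 88 and 74 bases before the start, and 6.49% of 27438 promoters of that length hold it. AAAAATCT, the site of the clock protein CCA1, was present in LHCB1.1 and LHCB1.4 (6.69% of promoters). CCAATC, reported for the GLK activators of photosynthesis genes, was present in 6 of 10 (10.2% of promoters), and CCAAT, which it contains, in 10 of 10 (46.0%). GATAAG was found in LHCB2.1 alone (12.3% of promoters), TATAAA in LHCB1.5 and LHCB3 (47.4%), and AAAATATCT, the evening element, in none (2.36%).

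The last 150 bases before the start of the 3 genes that differed between the constructs are printed, with matches to the G-box, the CCA1 site, the GLK motif and CCAAT, on either strand, in capitals: LHCB1.4 at chr2:14524457-14524606, LHCB2.3 at chr3:10255756-10255905 and LHCB4.1 at chr5:208716-208865, all on the plus strand.
LHCB1.4: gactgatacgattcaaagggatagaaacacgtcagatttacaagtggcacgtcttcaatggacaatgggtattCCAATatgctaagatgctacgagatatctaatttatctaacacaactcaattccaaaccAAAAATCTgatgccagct
LHCB2.3: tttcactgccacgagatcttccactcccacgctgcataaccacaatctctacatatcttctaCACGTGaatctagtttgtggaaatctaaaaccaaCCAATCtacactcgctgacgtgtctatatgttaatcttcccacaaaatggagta
LHCB4.1: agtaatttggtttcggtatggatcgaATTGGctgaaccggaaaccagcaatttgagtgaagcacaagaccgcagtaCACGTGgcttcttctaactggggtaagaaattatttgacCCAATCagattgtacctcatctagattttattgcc

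The 2 LHCB promoters with CACGTG thus belong to the 2 genes that fell between the constructs. Over all tested genes with a RefSeq promoter, 12.9% of 1524 with CACGTG and 14.7% of 20856 in all were lower in V1200R/cc. Those with CACGTG were higher in 17.5% of cases, against 14.6% of all. For the CCA1 site, 14.3% of 1389 genes with AAAAATCT were higher in V1200R/cc, against 14.6% of all. A match is a run of letters, and binding was not measured. These shares carry no test, and the part of any motif in the LHCB values was not tested.

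**Figure D4:**
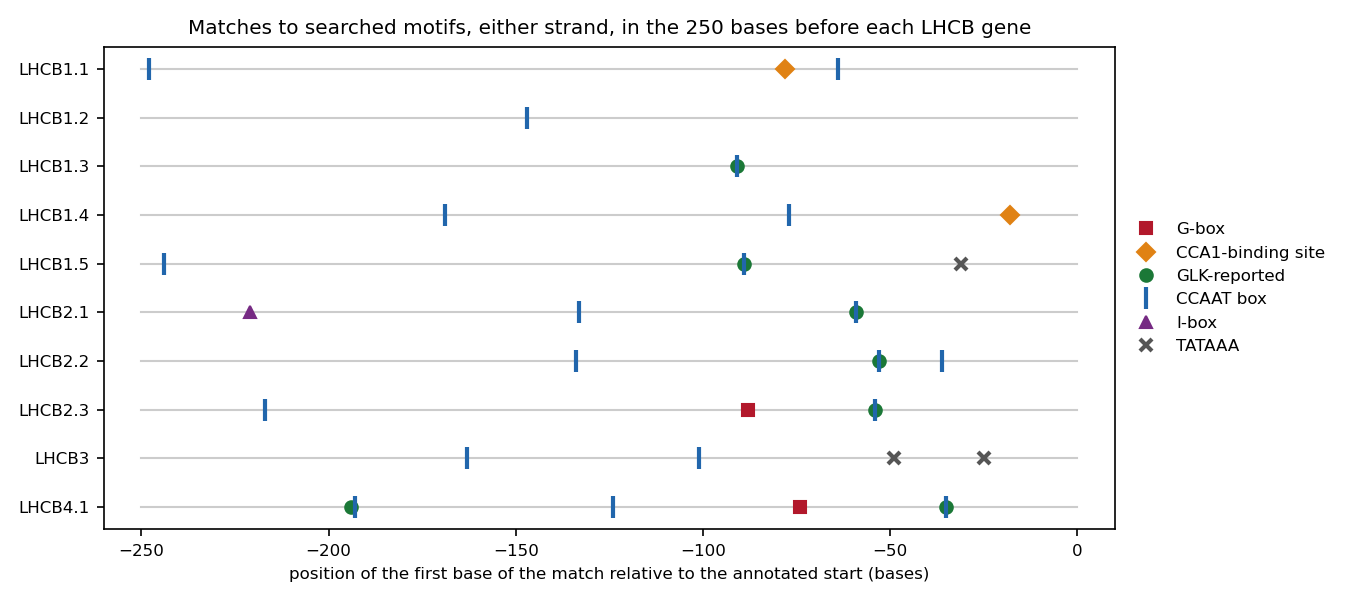
Positions of the searched motifs (symbols) in the 250 bases before the annotated start of each of the 10 LHCB genes (rows), with the distance from the start in bases along the x axis. The G-box is in LHCB2.3 and LHCB4.1, at 88 and 74 bases, and every gene has at least 1 CCAAT.

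Lists of other photosynthesis genes were set beside the LHCB genes in the comparison of V1200R/cc with CMT2/cc. Among the other light-harvesting proteins 2 of 11 rose and 3 fell. LHCB4.3, a low-level copy of LHCB4, was at 26.7 to 41.9 TPM in V1200R/cc and 72.1 to 85.2 TPM in CMT2/cc (log2 fold change -1.22, SE 0.08, limma adjusted p = 9.7e-06). LHCB4.3 also fell against cc in line 9 (-0.65) and line 15 (-1.08). LHCB7, a member of the family with low transcript level, was at 78.9 to 84.6 TPM in V1200R/cc and 42.7 to 51.2 TPM in CMT2/cc (log2 fold change 0.81, SE 0.06, limma adjusted p = 2.4e-05). LHCA6 had -0.19 (limma adjusted p = 0.0077). LHCB4.2, the abundant paralogue of LHCB4.1, rose slightly (0.13, limma adjusted p = 0.038), whereas LHCB5 (-0.04) and LHCB6 (0.08), the remaining monomeric antenna proteins, did not pass; these 3 were named after their values had been seen.

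The LHCB4 paralogues therefore had different values under the same contrast, in which LHCB4.1 and LHCB4.3 fell and LHCB4.2 rose. The difference between the paralogues was not tested.

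The counts for the reaction centres and the other lists are to be read against all features, of which 13.6% rose and 13.9% fell between the constructs. Of 12 photosystem I subunits, 0 rose and 1 fell (PSAH1, log2 fold change -0.13). Of 11 photosystem II subunits, 1 rose and 3 fell. PSBR, a subunit near the oxygen-evolving complex, was at 12519 to 13678 TPM in V1200R/cc and 6140 to 6640 TPM in CMT2/cc (log2 fold change 1.02, SE 0.05, limma adjusted p = 1.1e-06), with 6292 and 6369 TPM in cc. PSBS, which drives energy dissipation in the antenna, fell by 0.27 on the log2 scale and PSBX fell by 0.26. Against cc, PSBS had 0.22 and 0.21 in CMT2/cc lines 1 and 19 and -0.03 and -0.08 in V1200R/cc lines 9 and 15, none called.

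In electron transport, 1 of 6 genes rose and 3 fell. PETE1, a plastocyanin, was at 622 to 685 TPM in V1200R/cc and 298 to 331 TPM in CMT2/cc (log2 fold change 1.06, SE 0.05, limma adjusted p = 9e-07), while FNR2 was lower by 0.41 and PETC by 0.22 on the log2 scale. Against cc, FNR2 was higher in CMT2/cc lines 1 and 19 (0.39 and 0.37, limma adjusted p = 0.003 and 0.0052). It had 0.01 and -0.06 in V1200R/cc lines 9 and 15, neither called. PETC did not pass against cc in any of the lines. Among carbon fixation genes, 12 of 16 fell and none rose, with a list median of -0.25. RBCS3B (-0.38), RBCS1A (-0.37), both small subunits of Rubisco, and GAPB (-0.34) changed the most. Against cc, the median of the 16 carbon fixation genes was 0.11 and 0.09 in CMT2/cc lines 1 and 19. In V1200R/cc lines 9 and 15 that median was -0.07 and -0.18.

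Of chlorophyll synthesis genes, 2 of 17 rose and 5 fell. PORA, a protochlorophyllide reductase, rose at a very low level (1.75 to 3.58 TPM in V1200R/cc and 0.329 to 0.710 TPM in CMT2/cc) and PORB rose by 0.39 on the log2 scale, while GUN5 had -0.14. Of chlorophyll breakdown genes 1 of 6 fell (SGR1, -0.25). Of genes for delivery and phosphorylation of the antenna 3 of 8 fell and none rose: TAP38 (-0.19), the phosphatase that reverses STN7, CPFTSY (-0.16) and CPSRP54 (-0.11).

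**Figure D5:**
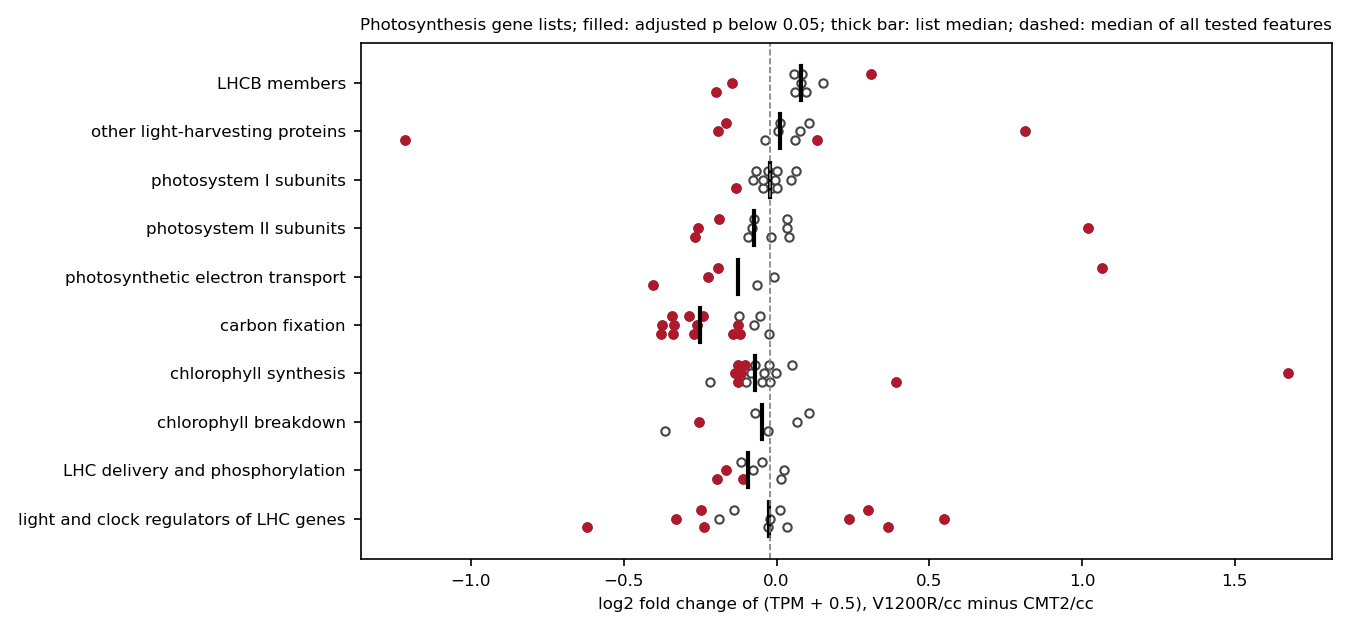
Log2 fold change of TPM + 0.5 in V1200R/cc minus CMT2/cc (x axis) for the genes of each photosynthesis list (rows), 1 point a gene, filled where adjusted p was below 0.05; thick bars are list medians and the dashed line is the median of all features tested (-0.02). The LHCB list has 3 filled points and a median of 0.08, and the carbon fixation list has 12 filled points, all below 0.

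Known regulators of LHCB transcription moved in both directions, with 4 of 14 higher and 4 lower in V1200R/cc, beside 13.6% and 13.9% of all features. CGA1, a GATA factor of greening, was lower by 0.62 on the log2 scale, and the phytochrome-interacting factors PIF3 and PIF4 were higher by 0.55 and 0.36. Against cc, CGA1 had -0.06 and -0.17 in V1200R/cc lines 9 and 15, neither called. In CMT2/cc lines 1 and 19 it had 0.52 and 0.49 (limma adjusted p = 0.019 and 0.031). PIF3 against cc passed in CMT2/cc line 19 alone (-0.79, limma adjusted p = 0.02). PIF4 against cc passed in V1200R/cc line 15 alone (0.49, limma adjusted p = 0.0077). Among genes named after their values had been seen, GLK1 had -0.33 (limma adjusted p = 0.00091), GLK2 0.03 (limma adjusted p = 0.62), CCA1 -0.24 (limma adjusted p = 0.0098), LHY -0.03 (limma adjusted p = 0.79) and HY5 -0.14 (limma adjusted p = 0.11). With the hour of harvest unknown, a difference in harvest time between the groups was not tested.

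Whole seedlings hold roots, so root markers were read in each group. Summed over 23 markers, root transcripts were at 2094 to 2508 TPM in V1200R/cc, 1511 to 1786 TPM in CMT2/cc, 1809 and 1811 TPM in cc and 2019 to 2074 TPM in Col-0. The sum was mostly PYK10, a root beta-glucosidase, which rose between the constructs (log2 fold change 0.68, limma adjusted p = 5.4e-05). Without PYK10 the order was the opposite, with 169 to 223 TPM in V1200R/cc and 258 to 309 TPM in CMT2/cc. That order rested on the iron transporter IRT1, at 0.787 to 11.6 TPM in V1200R/cc and 57.9 to 118 TPM in CMT2/cc (log2 fold change -4.28, limma adjusted p = 1.8e-05). Without both genes the groups overlapped, at 162 to 216 TPM in V1200R/cc, 158 to 208 TPM in CMT2/cc, 173 to 179 TPM in cc and 203 to 205 TPM in Col-0. Of the 22 root markers tested 1 rose and 2 fell, SCR (-0.31) being the other, and among 23 markers ESB1 and NRT2.1 were at 0 in some libraries. Of 8 markers of shoot epidermis and guard cells, SPCH alone passed (-0.31), and their sum was 103 to 106 TPM in V1200R/cc and 103 to 110 TPM in CMT2/cc. Their part in the LHCB values was not tested.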

How the data were processed

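Per the submitters' notes and the methods, the authors used fastp for trimming, HISAT2 2.0.0 for alignment to TAIR10 and StringTie for abundance. The deposited tables give coverage, FPKM and TPM per feature; their strand setting and their treatment of reads with several alignments are not given in the sources used here. The authors' DESeq2 test needs counts, so TPM as deposited were analysed. Features had to reach 0.5 TPM in 2 or more libraries, and log2(TPM + 0.5) of the 23614 that did was fitted with limma 3.58.1 (R 4.3.3, eBayes with a trend) over all 12 libraries, with a coefficient for each of 6 groups and Benjamini-Hochberg adjustment within each comparison. V1200R/cc minus CMT2/cc is the mean of 2 lines minus the mean of 2 lines and counts libraries of a line as independent. The fit was tested on simulated data, but no result of that test is given here and no statement rests on it. Library depth was derived from coverage and FPKM of features with at least 10 FPKM. Python 3.11.15, pandas 2.3.3, Biopython 1.88 and matplotlib 3.10.9 made tables, sequences and figures.

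The genes and the lists were chosen with earlier results of these data known. In each list, up to 3 called genes with the largest absolute log2 fold change between the constructs are named. No library was left out. Alternatives were pseudocounts of 0.1 and 1, no filter, a mean of at least 1 TPM, FPKM, median-ratio and quantile scaling, totals without LHCB and organelle genes, separate fits, a replicate block, each construct as 1 group, a 2-fold minimum and each library left out.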

Additional observations from a re-analysis of the deposited data

How the results depend on the processing

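Over 6 comparisons and 9 genes, 1182 alternative log2 fold changes kept their direction and side of the threshold, 6 became called, 32 lost the call and 31 changed sign. With a 2-fold minimum, 0 LHCB genes were called between the constructs and in V1200R/cc lines 9 and 15 against cc. With no filter on low values and with median-ratio scale factors 1 gene (LHCB1.4) was called between the constructs, and 0 in either line against cc, as in separate fits of the libraries compared. Quantile normalization gave 2 calls in line 15 against cc. No scaling moved the median of all features by over 0.1. Leaving out 1 library gave 0 to 3 calls for cc against Col-0, 0 to 1 for line 9 and 0 to 2 for line 15 against cc, where 2 were called without either Col-0 library.

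With quantile normalization, which forces equal values on equal ranks, LHCB1.1 became -0.1837 between the constructs (limma adjusted p = 0.0051), the only sign change with a call, and -0.1392 in lines 9 and 15 against cc. It was 0.0446 in CMT2/cc lines 1 and 19, LHCB2.1 was 0.0213 in line 19, LHCB2.3 was -0.1109 in line 1 and LHCB1.3 was 0.037 in V1200R/cc line 9, all against cc. In cc against Col-0, LHCB1.2 became -0.0376 and LHCB1.3 -0.1137. With median-ratio scale factors LHCB1.2 was -0.0171 in cc against Col-0 and LHCB3 was 0.0082 in V1200R/cc line 15. With FPKM LHCB1.1 was 0.0102 in cc against Col-0 and LHCB2.3 -0.0042 in CMT2/cc line 1, where totals without LHCB and organelle genes gave -0.0015.

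Without 1 library at a time, cc against Col-0 ranged from -0.0809 to 0.0777 for LHCB1.1, -0.0683 to 0.0894 for LHCB1.2, -0.0558 to 0.1277 for LHCB1.3, -0.2403 to 0.0153 for LHCB2.3 and -0.0063 to 0.0853 for LHCB4.1. Against cc, LHCB1.1 ranged from -0.0928 to 0.0262 in CMT2/cc line 19, -0.0677 to 0.0941 in V1200R/cc line 9 and -0.0017 to 0.0284 in line 15. LHCB1.3 ranged from -0.1429 to 0.0222 in line 9 and -0.0128 to 0.0504 in line 15, LHCB2.3 from -0.0458 to 0.055 in CMT2/cc line 1 and LHCB3 from -0.0538 to 0.0041 in V1200R/cc line 15. None of these was called. Apart from the constructions named, the cause of the shifts was not tested.

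The replicate number as a block gave the same counts, 3 calls between the constructs, 1 in each V1200R/cc line against cc and 0 elsewhere. Same-numbered replicates deviated together with r between -0.068 and 0.110. Values this low do not settle whether same-numbered replicates shared a culture or a batch. Coverage was at least 1090 reads per base, and each group had 2 libraries.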
